A study of Mus musculus with 12 samples.

Results

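The count rows described here hold reads of energy metabolism genes, and they are 3 of 57010 rows in the deposited tables. They are the row labelled Tbc1d10b (ENSMUSG00000042492), the row labelled Timeless (ENSMUSG00000039994) and the row labelled Scx (ENSMUSG00000034161). Row labels in these tables are displaced along the chromosomes, so a row mostly holds reads of a gene other than the one it is named for. When the exons of each row were moved by the displacement estimated for its neighbours, the rows met the exons of Aldoa, of Atp5b together with Ptges3, and of Cyc1, respectively. These identities are estimates made from the level of the rows, and "met" is used below for an overlap of the displaced exons with a gene.

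The libraries come from BV2 cells, a mouse microglial cell line, that were exposed for 24 h to extracellular vesicles (EVs), the membrane-bound particles that cells release. The EVs came from BV2 cultures that were untreated (control_EV), or treated with lipopolysaccharide (LPS_EV), TGF-β (TGFB_EV) or interleukin 10 (IL10_EV), with 3 libraries in each of the 4 groups. All 4 groups received EVs, so no group shows cells without them, and all rest on 1 immortalised line. Nothing in the labels ties a replicate to a culture of its own, so p-values measure the spread between these libraries, which may be technical. Library totals lay between 10497757 and 13647007 counts. By gene met, 5 rows met 4 of 14 microglia marker genes, and the rows that met Csf1r (labels Camk2a and Slc6a7) had means of 288 and 380 CPM (counts scaled to a common library total), that for Itgam (label Gm40457) 231 CPM, that for C1qb (label Gm13003) 45.3 CPM and that for Aif1 (label 1110038B12Rik) 15.1 CPM. No row met Cx3cr1, P2ry12, Tmem119 or Trem2 by at least 100 bp, the overlap asked of every list row. The rows that met the astrocyte genes Slc1a3 and Aldh1l1 were at 0 in every library. The row that met the oligodendrocyte gene Cnp (label Dhx58os) had 20.0 to 29.5 CPM, and those that met Mog, Mag and the neuronal gene Map2 had means of at most 0.029 CPM.

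Aldoa encodes fructose-bisphosphate aldolase A, the glycolytic enzyme that splits fructose 1,6-bisphosphate into a pair of triose phosphates in the cytosol. Cyc1 encodes cytochrome c1, the haem subunit of respiratory complex III that passes electrons to cytochrome c, and Atp5b encodes the catalytic beta subunit of ATP synthase, which uses the proton gradient that the respiratory chain builds to make ATP. Microglia use both routes, and inflammatory stimulation of these cells is known for raising glycolysis relative to respiration. Ptges3, which shares the Timeless row, encodes the Hsp90 co-chaperone p23.

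The genes lie, on GRCm38 with GENCODE M21 annotation, at chr7:126795234-126800751 on the minus strand (Aldoa), chr10:128083273-128090391 on the plus strand (Atp5b) and chr15:76343523-76346260 on the plus strand (Cyc1). Another Aldoa entry is annotated at chr7:126800790-126809108 on the minus strand. The Tbc1d10b row (chr7:127197459-127208468) had an estimated displacement of -401000 bp and met 1446 bp of Aldoa exons and 25 bp of Fam57b. Shifts of up to 300 bp either way kept the Aldoa overlap between 1366 and 1530 bp, and the displacement of the next stretch, which begins 422 bp after the row's end, gave 827 bp. The Timeless row (chr10:128232065-128252941) had a displacement of -164000 bp and met 1751 bp of Atp5b and 498 bp of Ptges3. The Scx row (chr15:76457452-76459458) had a displacement of -115800 bp and met 136 bp of Cyc1, all at the start of the gene. Its displaced span ran from 76341652 to 76343658, so most of it lay before Cyc1, where it met no other coding gene. The overlap with Cyc1 was 436 bp when the row was shifted by 300 bp towards the gene, and 0 bp when shifted by 200 or 300 bp the other way. Under the displacement of the stretch before it, which ends 458298 bp away, the row met 1707 bp of Scx itself. Its identity is thus the least certain of the 3.

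Bases of the coding exon with the most bases met are printed for each gene, since they show which part of the messenger RNA a row could count. Capitals mark bases inside the displaced exons and lower case the coding bases next to them; the sequences run 5′ to 3′ on the coding strand and come from the GENCODE M21 transcripts.
Aldoa-202, exon 4 of 10, coding positions 275 to 486: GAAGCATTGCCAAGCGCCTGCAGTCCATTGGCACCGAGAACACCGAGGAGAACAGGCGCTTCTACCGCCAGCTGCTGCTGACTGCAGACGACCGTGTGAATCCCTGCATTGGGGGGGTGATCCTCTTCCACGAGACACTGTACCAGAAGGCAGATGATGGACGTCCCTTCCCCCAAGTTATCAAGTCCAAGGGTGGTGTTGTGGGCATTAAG
Atp5b-201, exon 8 of 10, coding positions 1075 to 1287: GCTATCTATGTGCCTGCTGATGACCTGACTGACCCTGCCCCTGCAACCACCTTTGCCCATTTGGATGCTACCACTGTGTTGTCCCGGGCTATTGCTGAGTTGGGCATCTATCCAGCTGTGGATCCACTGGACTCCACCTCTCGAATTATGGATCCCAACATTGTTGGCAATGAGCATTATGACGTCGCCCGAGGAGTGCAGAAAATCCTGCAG
Cyc1-201, exon 1 of 7, coding positions 1 to 125: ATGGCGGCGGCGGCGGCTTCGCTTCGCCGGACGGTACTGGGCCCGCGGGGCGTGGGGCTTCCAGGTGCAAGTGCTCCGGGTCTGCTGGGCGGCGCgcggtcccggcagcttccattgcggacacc
The Tbc1d10b row met 702 of 1254 coding bases of Aldoa-202, and the Timeless row met 907 of 1587 coding bases of Atp5b-201. The Scx row met only the first 95 of 975 coding bases of Cyc1-201, those in capitals, which begin at the start codon.

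The Tbc1d10b row was the 6th highest of all rows by mean level and the Timeless row the 9th, while the Scx row ranked 3180. Levels are CPM scaled by the trimmed mean of M-values (TMM). Per kilobase of exon met, the mean over 12 libraries was 6382 CPM for the Tbc1d10b row and 2683 CPM for the Timeless row, in which Atp5b and Ptges3 cannot be told apart. The lowest Tbc1d10b library, at 5415 CPM per kilobase, lay above the highest Timeless library, at 2797. This order rests on the bases taken as met, 1471 and 2249 bp over all annotated transcripts of the genes. Of Aldoa-202 the Tbc1d10b row met 702 coding and 59 untranslated bases. Of Atp5b-201 the Timeless row met 907 coding and 42 untranslated bases. For the Scx row the level was 358 CPM per kilobase of exon met, a value that depends directly on its uncertain overlap.

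The Tbc1d10b row, which met Aldoa, had 9501, 10610 and 8931 CPM in control_EV replicates 1, 2 and 3, and 9437, 9933 and 9746 CPM in LPS_EV. It had 9142, 7965 and 9773 CPM in TGFB_EV, and 9008, 10358 and 8243 CPM in IL10_EV. The lowest library of all was TGFB_EV replicate 2 and the highest control_EV replicate 2, and the ranges of the 4 groups overlapped. Group means, in falling order, were 9705 ± 251 in LPS_EV, 9681 ± 854 in control_EV, 9203 ± 1071 in IL10_EV and 8960 ± 917 in TGFB_EV (SD, n = 3). No pair of neighbours in this order differed beyond the spread of its libraries.

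Within a group the Aldoa row differed between replicates by far more than counting error. The highest over the lowest library was 1.26 in IL10_EV (replicate 2 over replicate 3), with a 95% exact binomial counting interval of 1.25 to 1.27. The ratio was 1.23 (1.22 to 1.24) in TGFB_EV, 1.188 (1.178 to 1.198) in control_EV and 1.05 (1.04 to 1.06) in LPS_EV. The LPS_EV libraries thus lay closest together. Such intervals cover counting error only, since reads without molecular identifiers are not independent molecules.

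The Timeless row, which met Atp5b and Ptges3, was far steadier. It had 6290, 6138 and 6089 CPM in control_EV, 5868, 5858 and 5742 CPM in LPS_EV, 6027, 5840 and 6154 CPM in TGFB_EV, and 6138, 6022 and 6231 CPM in IL10_EV. All 3 LPS_EV libraries lay below all control_EV libraries, and with TMM scaling below all IL10_EV libraries, while TGFB_EV overlapped each of the others. Scaled by library totals alone, LPS_EV and IL10_EV overlapped, since LPS_EV replicate 1 had 5964 CPM and IL10_EV replicate 2 had 5908 CPM. Group means were 6173 ± 105 in control_EV, 6130 ± 104 in IL10_EV, 6007 ± 158 in TGFB_EV and 5822 ± 69.9 in LPS_EV (SD, n = 3). Neighbours in this order overlapped. Its highest over lowest library within a group lay between 1.02 and 1.05.

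One other row, labelled Apon (ENSMUSG00000051716), met Atp5b, by 296 bp, with 200 bp of Baz2a, a chromatin remodelling subunit, and no Ptges3. It was added after its values were seen, as a second reading of Atp5b. It had 1020, 1004 and 982 CPM in control_EV, 961, 970 and 940 CPM in LPS_EV, 950, 891 and 1035 CPM in TGFB_EV, and 1030, 1034 and 1056 CPM in IL10_EV. As in the Timeless row, all 3 LPS_EV libraries lay below all control_EV and IL10_EV libraries. The ratio of the Apon to the Timeless row ranged from 0.153 to 0.172 over the 12 libraries, with the lowest value in TGFB_EV replicate 2.

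The Scx row, which met the start of Cyc1, had the largest differences of the 3. It had 62.9, 53.9 and 57.9 CPM in control_EV (660, 630 and 702 counts) and 58.2, 50.3 and 45.8 CPM in LPS_EV (636, 579 and 512 counts). It had 30.3, 30.6 and 45.0 CPM in TGFB_EV (349, 355 and 562 counts) and 33.3, 54.9 and 60.5 CPM in IL10_EV (448, 710 and 829 counts). TGFB_EV replicates 1 and 2 and IL10_EV replicate 1 stood low at 30.3 to 33.3 CPM, and the other 9 lay between 45.0 and 62.9 CPM. Group means were 58.2 ± 4.54 in control_EV, 51.4 ± 6.25 in LPS_EV, 49.6 ± 14.4 in IL10_EV and 35.3 ± 8.38 in TGFB_EV (SD, n = 3). In this order control_EV and LPS_EV overlapped, as did LPS_EV and IL10_EV, and IL10_EV and TGFB_EV.

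Replicates of the Scx row also differed beyond counting error. IL10_EV replicate 3 was 1.82 times replicate 1, with a 95% exact binomial counting interval of 1.62 to 2.04, and TGFB_EV replicate 3 was 1.48 times replicate 1 (1.30 to 1.70). The same ratio of highest to lowest was 1.27 (1.13 to 1.43) in LPS_EV and 1.17 (1.05 to 1.30) in control_EV. Thus IL10_EV, whose mean lay below that of control_EV, held 1 low library and 2 within the control range. Set against the Timeless row of the same libraries, the Scx row gave 8.78 to 10.01 CPM per 1000 CPM in control_EV, 7.98 to 9.91 in LPS_EV, 5.43 to 9.72 in IL10_EV and 5.03 to 7.31 in TGFB_EV.

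**Figure D1:**
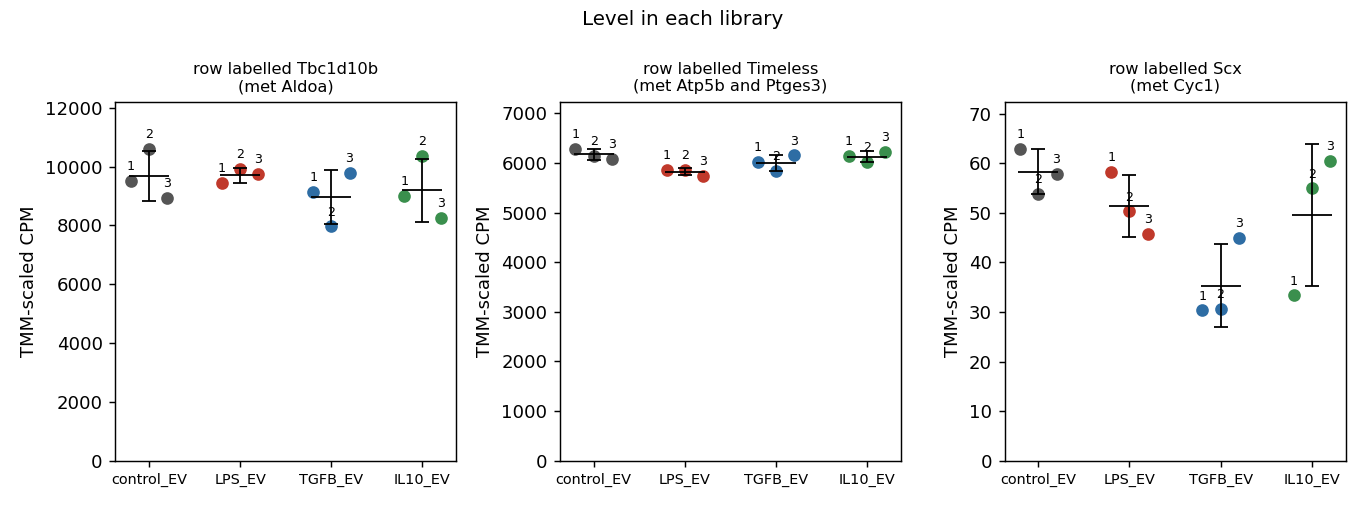
TMM-scaled CPM (vertical axes from 0) of the 3 rows in each of the 12 libraries, by group; points are libraries with their replicate number, and the line and bar are the group mean and SD (n = 3). In the Scx panel TGFB_EV replicates 1 and 2 and IL10_EV replicate 1 sit at 30.3 to 33.3 CPM, and in the Timeless panel all libraries sit between 5742 and 6290 CPM.

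The spread within groups placed the 3 rows differently among rows of like level. The pooled within-group SD of log2(CPM + 0.5) was 0.130 for the Tbc1d10b row, against a median of 0.065 over the 7 other rows within 2-fold of its level, none of which had a larger one. It was 0.027 for the Timeless row, where all 26 rows of like level had a larger SD and their median was 0.078. For the Scx row it was 0.297 against a median of 0.121 over 2762 rows of like level, of which 68 had a larger SD. So the Aldoa and Cyc1 rows stood at the variable end of their level and the Atp5b row at the steady end. The rule asked for differences between replicates, so these ranks are a description and carry no test.

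**Figure D2:**
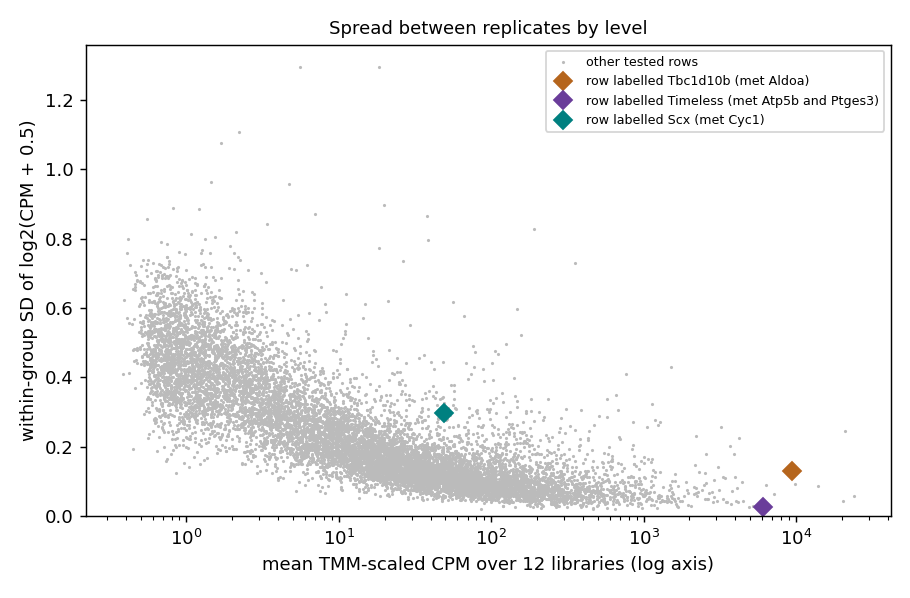
Pooled within-group SD of log2(CPM + 0.5) (vertical axis) against mean TMM-scaled CPM (horizontal log axis), 1 grey point per tested row and a diamond for each of the 3 rows. The Scx row lies at 0.297 and the Tbc1d10b row at 0.130, above most rows of their level, and the Timeless row at 0.027 lies under its neighbours.

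Over the 12 libraries the Aldoa row varied together with most other glycolysis rows, where r takes in differences between groups as well as between replicates. Of 13 other rows of at least 5 CPM that met a glycolysis or lactate gene, 10 had a Pearson r above 0.5 with it over the 12 libraries, and the median r was 0.82. These 10 rows met 7 genes, since Hk1, Hk2 and Pfkp were met by 2 rows each. The measure was chosen after the data were seen, is given without a test, and its points share library and depth. Over all 5063 rows of at least 20 CPM, 18.6% had an r above 0.5 with the Aldoa row and the median was -0.07.

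The row that met Tpi1 (label Gnb3), the isomerase acting directly after aldolase, had an r of 0.92 with the Aldoa row. Its levels were 4145, 4660 and 3799 CPM in control_EV, 4005, 3812 and 3831 CPM in LPS_EV, 3651, 3137 and 4276 CPM in TGFB_EV, and 3637, 4600 and 3375 CPM in IL10_EV. Replicate 2 was highest in control_EV and IL10_EV and lowest in TGFB_EV, as in the Aldoa row, whereas in LPS_EV replicate 2 was the highest for Aldoa and the lowest for Tpi1. The row that met Pgam1 (label Exosc1), phosphoglycerate mutase, had an r of 0.89, and in TGFB_EV it had 587, 473 and 698 CPM. The rows that met the hexokinases Hk1 and Hk2, the phosphofructokinases Pfkm and Pfkp and the glucose transporter Slc2a1 (label Ybx1) had an r between 0.79 and 0.89. The 3 rows outside this pattern met Pfkfb3 (r = -0.62), Eno1 (label Slc2a7, r = 0.35) and Pkm (label Myo9a, r = -0.05), and the last 2 had means of 10.6 and 10.8 CPM.

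The mitochondrial lists are set beside this without a test of the difference. With the Aldoa row, the median r was 0.03 over 12 rows of pyruvate oxidation and the citric acid cycle, 0.07 over 16 rows of complexes I and II, -0.08 over 5 rows of complex III and 0.04 over 5 rows of ATP synthase. An r above 0.5 was reached by 2 of 12, 1 of 16, 0 of 5 and 0 of 5 of these rows, next to the 18.6% of all rows. The 2 rows of complex IV, which met Cox6c and Cox8a, had an r of 0.33 and 0.65. Among the microglia markers 3 of 5 rows also had an r above 0.5 with the Aldoa row, and the summed level of the 5 ranged over 912 to 1073 CPM in control_EV, 980 to 1003 in LPS_EV, 738 to 1068 in TGFB_EV and 831 to 1236 in IL10_EV. The part of such shared differences in the Aldoa values was not tested.

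**Figure D3:**
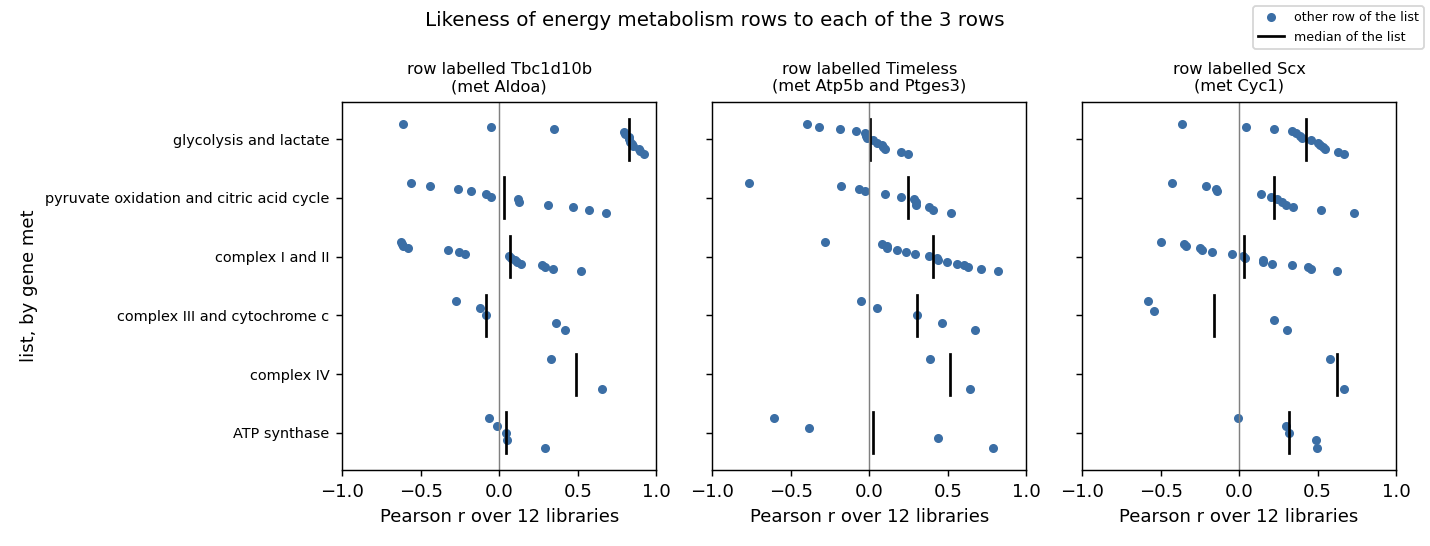
Pearson r over 12 libraries (horizontal axes, -1 to 1) between each of the 3 rows and the other rows of each energy metabolism list (points), with the median of each list as a black line. Glycolysis rows have a median of 0.82 with the Tbc1d10b row and 0.00 with the Timeless row, and complex I and II rows have medians of 0.07 and 0.41.

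With the Atp5b row, complex I and II rows had a median r of 0.41, with 5 of 16 above 0.5, whereas glycolysis rows had a median of 0.00 and none of 14 above 0.5. Over all rows of at least 20 CPM, 9.40% had an r above 0.5 with it. The Cyc1 row had a median r of -0.16 with the 4 other rows of complex III and cytochrome c, which met Uqcrc1 and Uqcrc2. It had an r of 0.58 and 0.67 with the 2 complex IV rows that met their gene by at least 100 bp. With the Lman1l row, which met 38 bp of the complex IV gene Cox5a and was picked for its likeness, it had 0.96. Its median r was 0.43 with 14 glycolysis rows and 0.55 with the 5 microglia marker rows, 3 of the 5 above 0.5. Over all rows of at least 20 CPM, 9.40% had an r above 0.5 with the Cyc1 row and the median was -0.07. Among themselves the 3 rows had an r of -0.02 (Aldoa and Atp5b), 0.36 (Aldoa and Cyc1) and 0.30 (Atp5b and Cyc1), while the Timeless and Apon rows had 0.79.

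The rows most like the Aldoa row, among rows with a gene symbol and at least 20 CPM, were those of C9orf72 (r = 0.93), Vim (r = 0.93) and Lmtk3, which met Gys1 (r = 0.93). C9orf72 takes part in autophagy, vimentin is an intermediate filament protein and Gys1 is a glycogen synthase. The Vim row had 14728 CPM in TGFB_EV replicate 2, its lowest library, and 25557 CPM in control_EV replicate 2, its highest, which are the same libraries as in the Aldoa row. The rows most like the Atp5b row were those of Lgr5, Gpr152 and Ahnak (r = 0.95, 0.88 and 0.88), which mainly met the endosomal GTPase Rab21, the protein phosphatase subunit Ppp1ca and the translation elongation factor subunit Eef1g.

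The rows most like the Cyc1 row were those of Lman1l, Tada3 and Kcnip2 (r = 0.96 each), which met 38 bp of Cox5a, 149 bp of Camk1 and 141 bp of Mgea5. Cox5a encodes a subunit of complex IV, Camk1 a calcium/calmodulin-dependent kinase and Mgea5 the enzyme that removes O-GlcNAc. The Lman1l row had 111, 95.2 and 106 CPM in control_EV, 119, 104 and 102 CPM in LPS_EV, 48.9, 43.6 and 82.8 CPM in TGFB_EV, and 53.1, 109 and 106 CPM in IL10_EV. Its 3 low libraries were the same as in the Scx row. The Lman1l and Tada3 rows met their gene only within 200 bp of its start, as the Scx row did.

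Rows that met 1 gene only within 200 bp of its start were described as a class, chosen after this likeness was seen. There were 33 such rows of at least 20 CPM, and the Scx, Lman1l and Tada3 rows that prompted the class are among them. Without these 3, the class had 30 rows with a median log2 difference of -0.05 in TGFB_EV against control_EV, and 2 of them (6.67%) were lower at an unadjusted p under 0.05 in edgeR's quasi-likelihood test. That share was 3.91% of 2197 rows that met more than 200 bp of 1 gene, 3.35% of 717 rows that met at most 200 bp elsewhere in a gene, and 2 of 8 rows within 200 bp of a gene's end. By library the median of the 33 rows was taken as a log2 difference from the control_EV mean, with the 3 rows that prompted the class kept in. This median was -0.03 in TGFB_EV replicate 1, -0.09 in TGFB_EV replicate 2 and -0.05 in IL10_EV replicate 1, where the Scx row was low. Where the Scx row was not low, it was -0.08, -0.02 and -0.05 in LPS_EV replicates 1, 2 and 3. It was -0.04 in TGFB_EV replicate 3, and -0.05 and -0.01 in IL10_EV replicates 2 and 3. The part of the overlap position in the Scx values was not tested.

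Each treatment was compared with control_EV by edgeR's quasi-likelihood test across all rows that passed the count filter, with Benjamini-Hochberg adjustment. None of the 3 rows was called at an adjusted p under 0.05 in any of the 6 comparisons. The share of all tested rows called was 0.817% for LPS_EV (86 of 10523), 0.038% for TGFB_EV (4 of 10524) and 0% for IL10_EV (0 of 10613, with 334 at an unadjusted p under 0.05 and 1 called by DESeq2). The 3 comparisons share the control_EV libraries, so their values are given side by side and no agreement between them is drawn.

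The Aldoa row had log2 differences from control_EV of 0.01 (SE 0.05, adjusted p = 0.981) in LPS_EV, -0.11 (SE 0.07, adjusted p = 0.820) in TGFB_EV and -0.07 (SE 0.08, adjusted p = 0.9996) in IL10_EV in edgeR. Each of these lay within the spread of its libraries. Leaving out 1 library at a time, the TGFB_EV difference ranged from -0.18 without TGFB_EV replicate 3 to -0.03 without TGFB_EV replicate 2. The IL10_EV difference ranged from -0.17 without IL10_EV replicate 2 to -0.00014 without IL10_EV replicate 3. Leaving out control_EV replicates 2 and 3 in turn gave -0.04 and -0.17 in TGFB_EV and -0.0023 and -0.13 in IL10_EV.

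The Atp5b row had a log2 difference of -0.08 (SE 0.04) in LPS_EV, a fold of 0.945, with an unadjusted p of 0.0532 and an adjusted p of 0.455 in edgeR. It was the 1 of the 3 rows whose LPS_EV libraries all lay below control_EV, as they did in 8.21% of all tested rows. The Apon row gave -0.06 (SE 0.05, adjusted p = 0.665 in edgeR) there, and 0.05 (SE 0.05, adjusted p = 0.9996 in edgeR) in IL10_EV, where its 3 libraries lay above those of control_EV with TMM scaling, as in 4.5% of all tested rows, and overlapped them by library totals. In TGFB_EV the Timeless row had -0.04 (SE 0.04, adjusted p = 0.885) and in IL10_EV -0.01 (SE 0.04, adjusted p = 0.9996) in edgeR.

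The Cyc1 row had log2 differences of -0.18 (SE 0.09, adjusted p = 0.490) in LPS_EV and -0.23 (SE 0.18, adjusted p = 0.9996) in IL10_EV in edgeR. Leaving out IL10_EV replicate 1, its low library, moved the IL10_EV difference to -0.01, and leaving out replicate 3 of that group moved it to -0.40. In TGFB_EV the difference was -0.72 (SE 0.13), a fold of 0.607, with an adjusted p of 0.0906 in edgeR and rank 11 of 10524 rows by p. All 3 TGFB_EV libraries lay below all 3 control_EV libraries, as in 5.5% of all tested rows. The row had been picked out from this comparison in earlier work on the same counts, so the values describe it and are no independent support.

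The call of the Cyc1 row in TGFB_EV turned on the setting. DESeq2 called it, with -0.72 and an adjusted p of 0.00185, among 17 called of 22249 rows with a p (0.0764%), and edgeR without the count filter also called it (adjusted p = 9.54e-09). Without TGFB_EV replicate 3, its highest TGFB_EV library, the difference was -0.94 (adjusted p = 1.83e-05 in edgeR), and the rows called rose from 4 to 419. Without any 1 of the other 5 libraries the difference lay between -0.78 and -0.62 with adjusted p between 0.289 and 0.896.

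**Figure D4:**
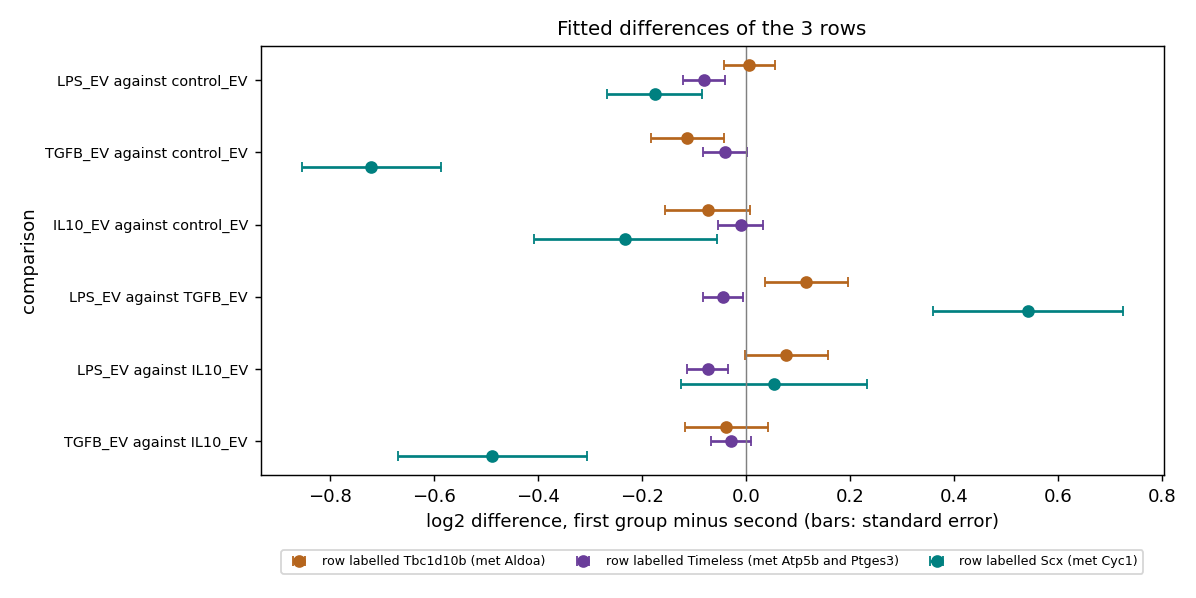
Fitted log2 differences (horizontal axis, first group minus second) of the 3 rows in the 6 comparisons, with standard errors as bars. The Scx row lies at -0.72 for TGFB_EV against control_EV and at 0.54 for LPS_EV against TGFB_EV, and the other 2 rows lie between -0.11 and 0.12 throughout.

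**Figure D5:**
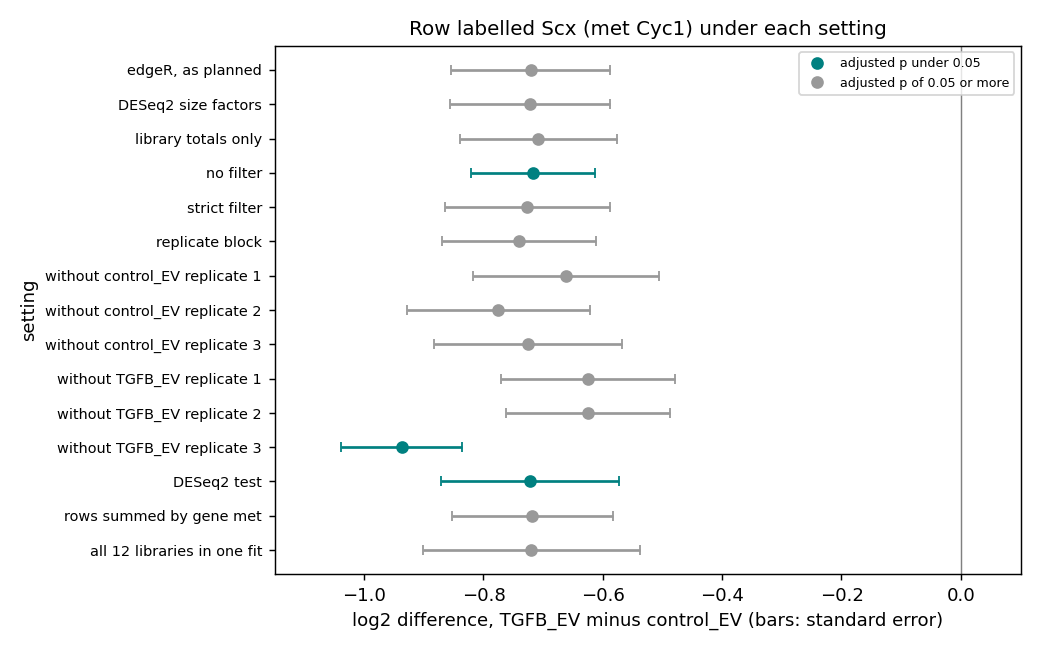
Log2 difference of the Scx row, TGFB_EV minus control_EV (horizontal axis, bars are standard errors), under each setting; coloured points have an adjusted p under 0.05 and grey points do not. All points are below 0, from -0.94 without TGFB_EV replicate 3 to -0.62 without TGFB_EV replicate 1.

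Pairs of treatments were compared in 1 edgeR fit of all 12 libraries, in which 0% of 11267 rows were called in each pair. At an unadjusted p under 0.05 there were 1442 rows for LPS_EV against TGFB_EV, 634 for LPS_EV against IL10_EV and 842 for TGFB_EV against IL10_EV, and DESeq2 called 104, 1 and 11. The Aldoa row had 0.12, 0.08 and -0.04 in these pairs (SE 0.08 each, adjusted p = 0.572, 0.9505 and 0.935 in edgeR). The Atp5b row had -0.04, -0.07 and -0.03 (SE 0.04 each, adjusted p = 0.669, 0.850 and 0.888 in edgeR). With TMM scaling its LPS_EV libraries all lay below those of IL10_EV, as in 5.09% of rows, but by library totals they overlapped.

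The Cyc1 row was higher in all 3 LPS_EV libraries than in all 3 TGFB_EV libraries, as were 9.82% of rows, with a log2 difference of 0.54 (SE 0.18, adjusted p = 0.238 in edgeR). Between TGFB_EV and IL10_EV it had -0.49 (SE 0.18, adjusted p = 0.623 in edgeR), where IL10_EV replicate 1 lay within the TGFB_EV range. Between LPS_EV and IL10_EV it had 0.05 (SE 0.18, adjusted p = 0.992 in edgeR). The Cyc1 comparisons with TGFB_EV share the libraries that set it apart from control_EV.

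The other rows of glycolysis, pyruvate oxidation, the citric acid cycle, complexes I to IV and ATP synthase gave no called row in any comparison, in either direction. For glycolysis and lactate in TGFB_EV, 13 of 16 tested rows, the Aldoa row among them, were below control_EV, with a median log2 difference of -0.15 against 0.00 over all rows. Of these, 2 of 16 were at an unadjusted p under 0.05, against 6.23% of all tested rows, and they were the rows that met Pgam1 (-0.31, SE 0.11, adjusted p = 0.772 in edgeR) and Hk2 (-0.28, SE 0.12, adjusted p = 0.789 in edgeR). In the same comparison 4 of 5 microglia marker rows were below 0, with a median of -0.19 and 1 at an unadjusted p under 0.05, and their part in the glycolysis values was not tested. In LPS_EV 5 of 17 glycolysis rows were below 0 and the median was 0.04, and in IL10_EV 8 of 16 were below 0 with a median of 0.01. Among 2197 rows of at least 20 CPM that met more than 200 bp of 1 gene, 45.6% were below 0 in TGFB_EV, 56.6% in LPS_EV and 46.6% in IL10_EV. Some glycolysis rows had lower levels or shorter overlaps than this set. Hk1, Hk2 and Pfkp were each met by 2 of the 16 rows, and 10 glycolysis rows had an r above 0.5 with the Aldoa row. The 13 rows below control_EV are thus not 13 separate results.

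Apart from the 3 rows, 26 rows of at least 5 CPM met a respiratory chain or ATP synthase gene by at least 100 bp. Their log2 differences from control_EV lay between -0.17 and 0.42, and those of 4 rows under 5 CPM between -0.93 and 1.13. The Lman1l row, which met only 38 bp of Cox5a of complex IV, is not among them. It had -0.83 (SE 0.17, adjusted p = 0.191 in edgeR) in TGFB_EV. In LPS_EV 14 of 17 complex I and II rows were below 0 with a median of -0.05, and in IL10_EV 1 of 16 was below 0 with a median of 0.07. Between LPS_EV and IL10_EV 16 of 17 of these rows were lower in LPS_EV, with a median of -0.12. Of the 17, 6 were at an unadjusted p under 0.05 against 5.63% of all rows, none of them called by edgeR. Ndufs1, Sdhb and Ndufa9 were each met by more than 1 of the 17 rows. Among 2197 rows of at least 20 CPM that met more than 200 bp of 1 gene, 56.6% were below 0 in LPS_EV and 46.6% in IL10_EV. For LPS_EV against IL10_EV 60.0% of them were below 0. The Atp5b row had -0.07 for LPS_EV against IL10_EV. High rows among these met Ndufs1 (label Gm20342, 506 CPM) and Ndufa4 (335 CPM), which belong to or associate with the chain's NADH dehydrogenase and terminal oxidase. For complex III, the rows that met Uqcrc1 (label Plxnb1) and Uqcrc2 (label Gm45137) had 391 and 184 CPM, and in TGFB_EV their group means were 390 ± 9.65 and 192 ± 1.31 against 396 ± 5.68 and 182 ± 9.98 in control_EV (SD, n = 3). All 4 rows that met these core subunits of complex III had log2 differences of between -0.02 and 0.08 in TGFB_EV, next to -0.72 for the Cyc1 row, and the difference between the rows was not tested. Uqcrc1 was met by the Plxnb1 row, and Uqcrc2 by the Mettl9, Gm45137 and Gm44901 rows, by 112 to 122 bp each. With Cyc1 these are 3 of the 10 genes of that list.

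For complex IV the rows that met Cox8a (label Naa40, 1090 CPM) and Cox6c (437 CPM) had -0.12 and -0.14 in TGFB_EV. Beside the Timeless and Apon rows, the ATP synthase list had the row that met Atp5l (label Cd3e), a subunit of the membrane part, with a mean of 194 CPM. Of pyruvate oxidation and the citric acid cycle, high rows met the dehydrogenase subunits Idh3b (label Vps16, 1670 CPM) and Ogdh (label Zmiz2, 512 CPM). In TGFB_EV the medians were -0.02 for the citric acid cycle and for complexes I and II and -0.07 for ATP synthase, next to -0.04 for the Timeless row itself.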

How the data were processed

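RNA from BV2 cells was sequenced in 12 libraries, made per the labels' protocols with SMART-Seq and Nextera kits, which do not mark strand, so overlapping genes share reads. Unnormalised counts per Ensembl gene ID were deposited by the authors in tables of 6 libraries with the same control_EV columns; an identical copy of 1 table was not used. DESeq2 is named in the submitters' processing notes; aligner, counter, genome build and annotation: not given in the sources used here. Rows without a symbol (1.81% of counts) kept their ID.

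Row exons (GENCODE M21) were displaced in 100 bp steps, up to 1000 kb (2000 kb on X), by a fit to mean CPM without group labels, with a penalty of 15 per change; the 3 rows were left out of it and took the displacement of the row before them. Of 74 stretches 65 were supported (94.6% of positioned rows). These settings were changed with the genes met in view: 4 configurations were run, and the 3 rows met the same genes in each. A row stands for the gene with most bases met. Rows of the gene lists met that gene by at least 100 bp.

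Tests used edgeR 4.0.16 under R 4.3.3 (TMM scaling, filterByExpr with a minimum of 10, quasi-likelihood, Benjamini-Hochberg adjusted p under 0.05): 6 libraries for each comparison with control_EV, 12 for treatment pairs. DESeq2 1.42.0, other normalisations and filters, a replicate block, rows summed by gene, other sets of libraries and leaving out each library were alternatives. A count of 3 equals 0.220 to 0.286 CPM. Scripts were tested on simulated data. The rows and gene lists were chosen with earlier results of these data known. Named genes are the 3 rows, the 3 highest and any called row of each list, and the 3 rows most like each row, except items that are not reported here; Vim, Apon, the other glycolysis rows and the rows near gene starts were described further after their values were seen. No pair of libraries of 1 group agreed within sampling noise.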

Additional observations from a re-analysis of the deposited data

How the results depend on the processing

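Of 456 recomputed values 404 were rated the same. For differences this meant the same direction and side of the threshold, and for counts of rows a value within 1.5 times. A difference without an adjusted p was rated the same if its direction held. Group means were rated the same within the SD of the group. Leaving out a library cannot move such a mean further, so these ratings were fixed in advance. The Scx row in TGFB_EV against control_EV was called without the count filter (-0.72), by DESeq2 (-0.72) and without TGFB_EV replicate 3, and leaving out each library gave -0.94 to -0.62. Without the filter it was also called for LPS_EV against TGFB_EV (0.53) and TGFB_EV against IL10_EV (-0.50). The Tbc1d10b row in LPS_EV against control_EV was -0.0019 with DESeq2 and -0.0492 to 0.0752 over libraries left out. Signs also turned among libraries left out for the Timeless row in IL10_EV (-0.0222 to 0.0035), and for the Scx row in LPS_EV against IL10_EV (-0.17 to 0.22) and the Tbc1d10b row in TGFB_EV against IL10_EV (-0.11 to 0.0522). None of these 4 was called in any setting; the causes were not tested.

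Rows called moved more. Without the filter they were 165 in LPS_EV, 111 in TGFB_EV and 22 in IL10_EV against control_EV, and 340 for LPS_EV against TGFB_EV, 18 for LPS_EV against IL10_EV and 160 for TGFB_EV against IL10_EV. DESeq2 called 17 in TGFB_EV, 1 in IL10_EV, and 104, 1 and 11 in the pairs. One fit of all 12 libraries called 0 in LPS_EV and 0 in TGFB_EV, summing rows by gene met 2 in TGFB_EV, library totals 5 and the 6 libraries of the pair 120 for LPS_EV against TGFB_EV. Leaving out a library gave 18 to 127, 0 to 419 and 0 to 2 against control_EV (419 without TGFB_EV replicate 3), and 0 to 230, 0 to 3 and 0 to 1 in the pairs, the lone or paired libraries being assumed to vary like the rest. A replicate block called 209 in LPS_EV, 3 in IL10_EV and 2 for LPS_EV against TGFB_EV. It left the Scx row in TGFB_EV at -0.74 (adjusted p = 0.190 in edgeR). Same-numbered libraries correlated at -0.17 to 0.09 and differently numbered ones at -0.09 to 0.22. Of 12 libraries 2 correlated best with their own number. Whether the numbers pair libraries across groups cannot be told from these correlations. With 349 to 829 counts a library, the Scx row had wider counting intervals than the other rows, and its replicates differed beyond counting error.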
